A study of Drosophila melanogaster with 2 samples.

Results

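The piRNA tables of Drosophila melanogaster ovaries listed transposon sequences that are named for other fly species. The 94 features described here carry in their name the tag of Drosophila yakuba (_DYa or _Dya, 58 features) or Drosophila takahashii (_DTa, 36 features), both members of the melanogaster species group. They were taken by name alone from the 1364 features of the 2 tables together, and Copia-1_DYa-I was left out by the same rule. Of the 94, 91 were listed for pelo1/+ and 89 for peloPB60/1, with 86 in both tables. By name, 60 belonged to the Gypsy, 26 to the BEL and 2 to the Copia superfamily, and the other 6 were R1_DYa, R1-1_DYa, R2_DYa, Jockey-1_DYa, Jockey-2_DYa and RTE-1_DYa.

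The study sequenced small RNAs of 18 to 30 nt from hand-dissected ovaries of females aged 3 to 5 days. The groups were pelo1/+ females, with 1 mutant and 1 normal copy of pelo, and peloPB60/1 females, with the mutant alleles PB60 and 1, so allele 1 was present in both. The pelo transcript was not measured in small RNAs, so the genotype labels could not be checked. Each genotype had 1 library, so the differences below lack any replicate check, p-values are not given, and each comparison is between 2 libraries. The sources used here give neither background strains nor the number of animals per library. The piRNA tables held 5229331 reads for pelo1/+ and 4872519 for peloPB60/1. The tissue label was checked on miRNAs, with reads in pelo1/+ given first. Follicle cell miRNAs were present, miR-989 higher and miR-994 lower in peloPB60/1, with 316447 and 886701 reads of miR-989, 155515 and 13199 of miR-994, and 16837 and 17818 of miR-318. The female germline miRNA miR-184 had 59612 and 74464. Of 2 muscle miRNAs, miR-1 had 4037 and 13793 reads and miR-133 had 12 in each library, and the neuronal miR-124 had 11 and 36. The part of these differences in the results was not tested.

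piRNAs are small RNAs that guide Piwi-class Argonaute proteins to transposon transcripts in the gonads, and most are cut from long transcripts of transposon remnants. Gypsy, BEL and Copia are superfamilies of LTR retrotransposons, whose internal part encodes the Gag and Pol proteins and is flanked by a pair of identical long terminal repeats that hold the promoter. Repeat catalogues list both portions as separate entries, marked -I for internal and -LTR. R1, R2, Jockey and RTE elements are retrotransposons without LTRs, and R1 and R2 insert into ribosomal RNA genes. The product of pelo, Pelota, rescues stalled ribosomes and is needed in the female germline. A read counted for a feature of another species is a D. melanogaster read that matched that sequence. The number of mismatches allowed, and how reads matching several related sequences were shared out, are unknown here, so single values of related features are uncertain.

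The 94 features together took nearly the same small share of the piRNA reads in both genotypes. They held 19893 reads in pelo1/+ and 19171 in peloPB60/1. That was 0.380% and 0.393% of the table, or 3804 and 3935 reads per 1000000 reads of the piRNA table (CPM). The pooled log2 ratio of peloPB60/1 over pelo1/+ was 0.049, with an exact conditional 95% interval from 0.020 to 0.077 that, like all intervals here, covers counting error only. In whole ovaries, fewer cells of a type and less RNA per cell cannot be told apart. The near-equal total was the sum of opposite differences. The most abundant feature, Gypsy20-I_Dya, was 2.06-fold higher in peloPB60/1, and the other 93 features pooled were 1.28-fold lower, at 15938 and 11594 reads (log2 ratio -0.36, interval -0.39 to -0.32). All other piRNA features had a pooled log2 ratio of -0.00019, and the members' pooled ratio differed from theirs by 0.049 with Gypsy20-I_Dya and by -0.36 without it. Scaling to the piRNA table sets the zero point of these ratios. Other scalings moved every log2 ratio together, by -0.24 with the miRNA total up to 0.50 with upper quartiles, while a difference between features within the tables stayed as it was. A log2 ratio between about -0.50 and 0.24 therefore changed sign under at least 1 scaling, and this holds for every pooled ratio and median in that range below.

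**Figure D1:**
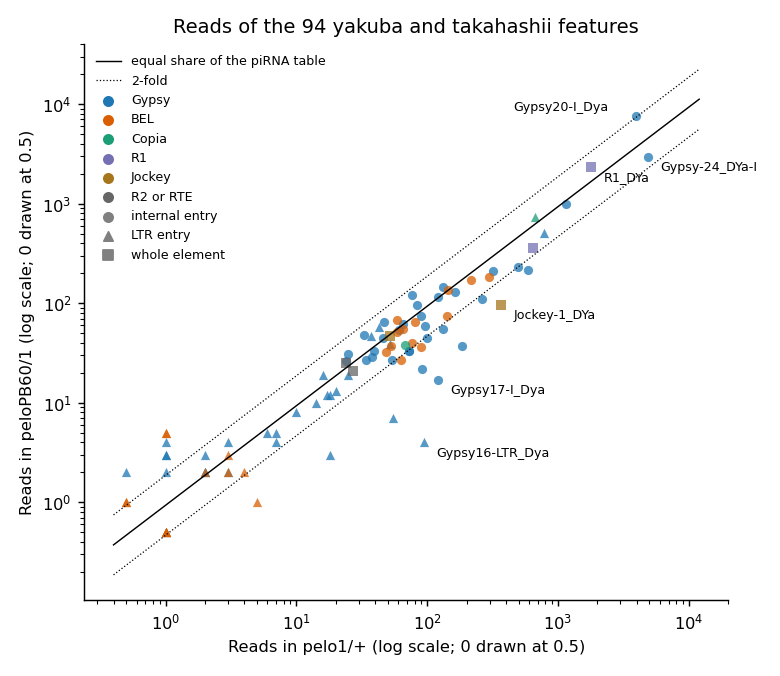
Reads of each of the 94 features in pelo1/+ (horizontal, log scale) against peloPB60/1 (vertical, log scale), coloured by superfamily and shaped by entry type, with a count of 0 drawn at 0.5. Gypsy20-I_Dya, at 3955 and 7577 reads, lies on the upper 2-fold line, and Gypsy16-LTR_Dya, at 94 and 4 reads, lies farthest below the lower one.

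Few of the features had many reads. Only 1 feature had at least 10000 reads summed over both libraries, 6 had at least 1000, and 37 had fewer than 50, with a median of 87. The 2 leading features, both internal entries of yakuba Gypsy elements, held 44.2% of the members' reads in pelo1/+ and 54.9% in peloPB60/1. The leading 10 held 76.5% and 84.1%. Even the most abundant feature was minor among piRNAs, since Gypsy20-I_Dya ranked 93 by summed reads among all piRNA features.

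Gypsy20-I_Dya had 3955 reads in pelo1/+ and 7577 in peloPB60/1, or 756.3 and 1555 CPM. Its log2 ratio was 1.04 (interval 0.98 to 1.10), and its share of the members' reads went from 19.9% to 39.5%. Gypsy-24_DYa-I, the most abundant feature in pelo1/+, differed in the other direction, at 4844 and 2951 reads, or 926.3 and 605.6 CPM (log2 ratio -0.61, interval -0.68 to -0.55). The order of these Gypsy elements therefore differed between the libraries, with Gypsy-24_DYa-I above Gypsy20-I_Dya in pelo1/+ and below it in peloPB60/1. R1_DYa, a retrotransposon of ribosomal DNA, had 1787 and 2346 reads (log2 ratio 0.49, interval 0.41 to 0.58). Gypsy-23_DYa-I had 1146 and 990 reads, and its log2 ratio of -0.11 had an interval that held 0 (-0.23 to 0.015).

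The remaining features among the leading 10 had fewer reads each. Copia-1_DYa-LTR had 672 and 734 reads (log2 ratio 0.23), and Gypsy-22_DYa-LTR had 777 and 512 (-0.50). R1-1_DYa had 642 reads in pelo1/+ and 354 in peloPB60/1, a log2 ratio of -0.76. The 2 yakuba R1 entries thus went opposite ways, and the log2 ratio of R1_DYa exceeded that of R1-1_DYa by 1.25 (interval 1.04 to 1.46). Gypsy4-I_Dya had 586 and 213 reads, 2.56-fold lower in peloPB60/1. Gypsy-22_DYa-I was just under 2-fold lower, at 493 and 233 reads (log2 ratio -0.98), and Gypsy9-I_Dya had 317 and 212 reads (-0.48). Of these 10, the log2 ratios of Gypsy-23_DYa-I, Gypsy9-I_Dya and Copia-1_DYa-LTR changed sign under another scaling.

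**Figure D2:**
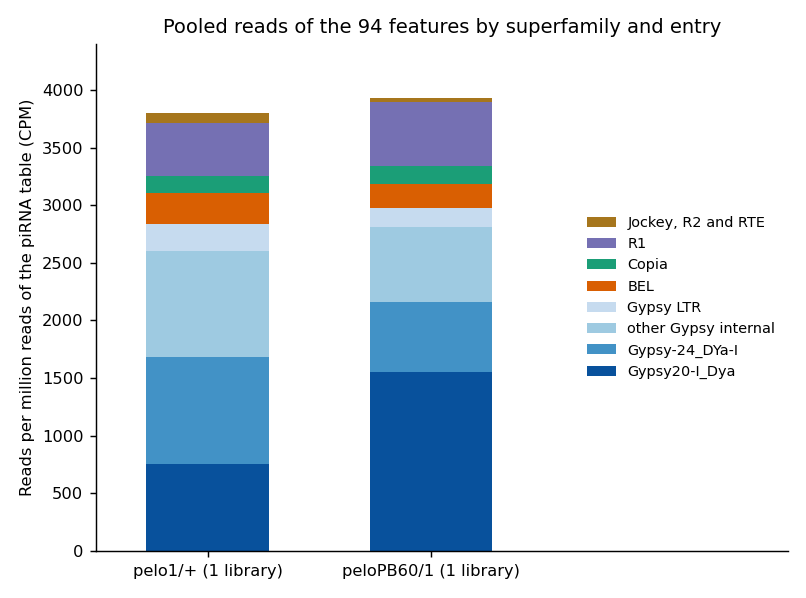
Stacked bars of the pooled reads per 1000000 piRNA reads (CPM) in the pelo1/+ and the peloPB60/1 library, 1 library each and so without error bars, split by leading features, superfamily and entry type. The bars end at 3804 and 3935 CPM, while the Gypsy20-I_Dya segment is 756.3 CPM in pelo1/+ and 1555 CPM in peloPB60/1.

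Ratios of single features were read for the 57 features with at least 50 summed reads, using log2 ratios with 0.5 counts added. Calls of higher or lower needed a 2-fold difference and an interval without 0. Of the 57, 1 was called higher in peloPB60/1, 14 were called lower and 42 were neither. Over all 438 piRNA features that passed the same filter, 2.97% were called higher and 15.8% lower. For the members the shares to set beside these are 1 of 57 and 14 of 57. The median log2 ratio of the 57 was -0.28, against -0.22 for all 438 and -0.36 for the 176 other features with a species name, which include Copia-1_DYa-I and yakuba names written in other ways. Of the 57, 41 were below 0 and 16 above, and intervals lay wholly below 0 for 25 and wholly above for 4. Over all 438 features, 274 were below 0 and 164 above, and intervals lay wholly below 0 for 188 and wholly above for 104. Among the 176 other features with a species name, 129 were below 0 and 47 above. Across the 6 scalings, 24 of the 57 stayed below 0 and 10 stayed above.

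The 1 higher call was Gypsy20-I_Dya, which sits at the 2-fold limit. Scaled to the total of both tables its log2 ratio was 0.97, scaled to the miRNA total it was 0.80, and in neither case was it called. The next highest ratios among the 57 were those of Gypsy19-I_Dya (76 and 122 reads, log2 ratio 0.78) and Gypsy6-I_Dya (33 and 48 reads, 0.64). Neither was called, and the interval of Gypsy6-I_Dya held 0. They are named after their values were seen.

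The lowest ratio of all was that of Gypsy16-LTR_Dya, with 94 reads against 4 (log2 ratio -4.29, interval -6.36 to -3.05). The internal entry of the same yakuba element, Gypsy16-I_Dya, had 92 and 22 reads and was 3.83-fold lower (log2 ratio -1.94, interval -2.70 to -1.28). Both portions of Gypsy16 were therefore called lower, and summed they had a log2 ratio of -2.74. Gypsy17-I_Dya had 120 and 17 reads, 6.42-fold lower (log2 ratio -2.68, interval -3.54 to -1.98), and its LTR entry had 1 read in pelo1/+ and none in peloPB60/1. Among takahashii elements, Gypsy-7_DTa-LTR had 55 and 7 reads (log2 ratio -2.79), and Gypsy-3_DTa-I had 183 and 37 (-2.19). These 4 features, namely Gypsy16-LTR_Dya, Gypsy17-I_Dya, Gypsy-7_DTa-LTR and Gypsy-3_DTa-I, were the members at least 4-fold lower, against 4.11% of all 438 tested features.

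Outside the Gypsy superfamily, the lowest ratio was that of Jockey-1_DYa, a non-LTR element, with 366 and 96 reads (log2 ratio -1.82, interval -2.17 to -1.50). The other yakuba Jockey entry, Jockey-2_DYa, also named after its values were seen, had 52 and 47 reads and a log2 ratio of -0.042. The difference between these Jockey entries was 1.78 log2 units (interval 1.09 to 2.47). Among BEL elements BEL-3_DTa-I was lowest, with 89 and 36 reads (log2 ratio -1.19). The other lower calls had log2 ratios from -1.36 to -1.03. They were Gypsy4-I_Dya and, named after their values were seen, Gypsy5-I_Dya, Gypsy8-I_Dya, BEL-9_DTa-I, Gypsy-5_DTa-I, Gypsy-25_DYa-I and Gypsy-9_DTa-I. Those close to the limit depended on the scaling: 8 features were called lower with TMM factors, beside 47 over all 438 features, and 10 with median-of-ratios factors, beside 55. With the miRNA total they were 18, beside 101. Upper quartiles gave 5 higher and 6 lower calls, beside 50 and 31 over all 438 features. Higher calls over all 438 were 17 with TMM and with median-of-ratios factors and 5 with the miRNA total.

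**Figure D3:**
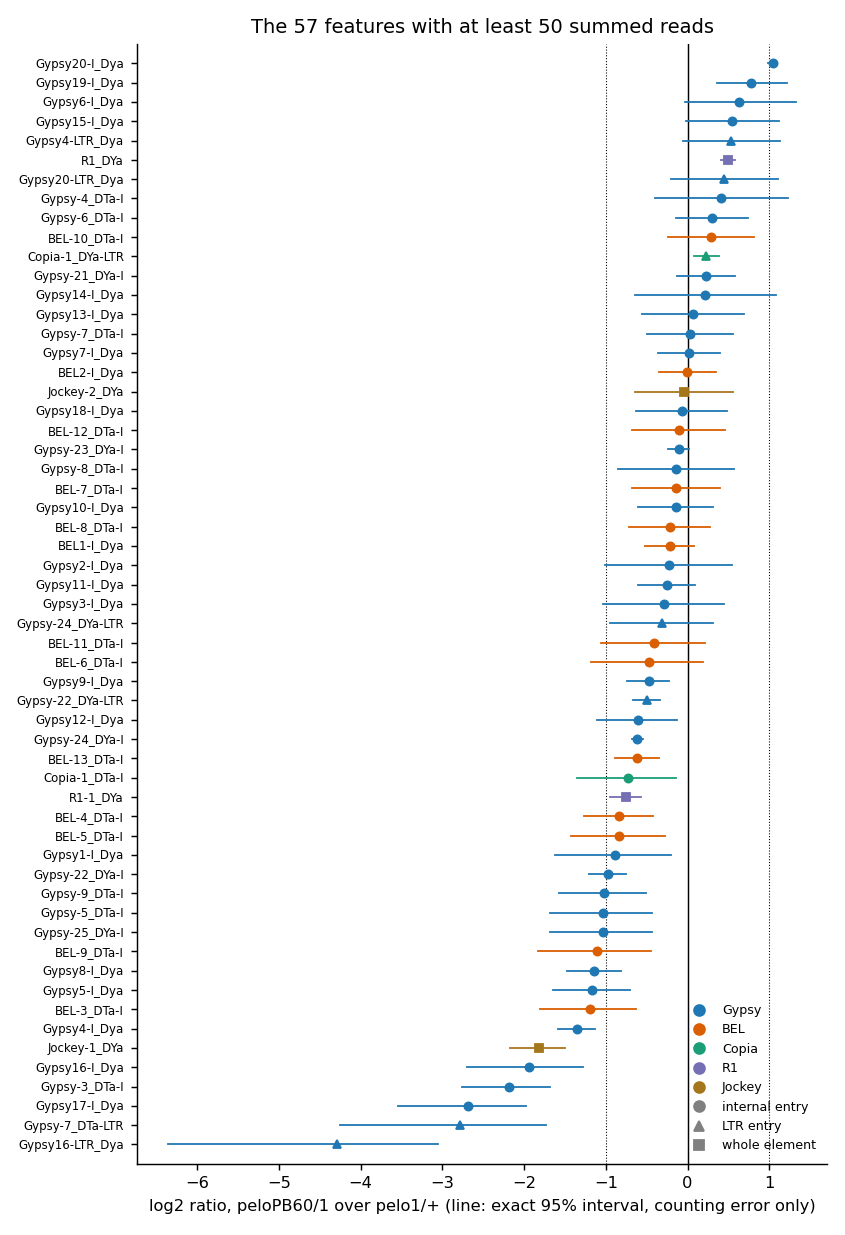
The log2 ratio of peloPB60/1 over pelo1/+ for each of the 57 features with at least 50 summed reads, in order, with lines for the exact 95% interval of counting error and dotted lines at 2-fold. Gypsy20-I_Dya is at the top at 1.04, and the lower end is formed by Gypsy16-LTR_Dya, Gypsy-7_DTa-LTR, Gypsy17-I_Dya and Gypsy-3_DTa-I, from -4.29 to -2.19.

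Internal entries held most of the reads. The 46 internal entries had 15067 and 14722 reads in pelo1/+ and peloPB60/1, which was 75.7% and 76.8% of the members' reads. The 42 LTR entries had 1928 and 1560 reads, or 9.69% and 8.14%, and the 6 entries of whole elements had 2898 and 2889. These are levels per entry and not per length, since entry lengths were not used here. All 46 internal entries passed the filter of 50 summed reads, against 7 of the 42 LTR entries. The median internal entry had 132 summed reads and the median LTR entry 6. The 8 features listed in 1 table only were all LTR entries. The most abundant of them was Gypsy-25_DYa-LTR, with 2 reads in peloPB60/1, and the other 7 had 1 read each. A count of 0 allows up to 3 reads, or 0.574 CPM in pelo1/+ and 0.616 CPM in peloPB60/1, so none of these 8 shows a difference at this depth.

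The pooled log2 ratio was 0.069 for internal entries (interval 0.036 to 0.10) and -0.20 for LTR entries (-0.30 to -0.11). The internal ratio exceeded the LTR ratio by 0.27 log2 units (interval 0.17 to 0.37). This direction rested on Gypsy20-I_Dya, which held 26.2% of the internal reads in pelo1/+ and 51.5% in peloPB60/1. Without it the internal entries had a log2 ratio of -0.54, and the difference from the LTR entries was -0.33. The LTR value leaned on Copia-1_DYa-LTR in the same way, with 34.9% and 47.1% of the LTR reads. Without it the LTR entries had -0.50, close to the internal entries without Gypsy20-I_Dya. Feature by feature, 1 internal entry was called higher and 11 lower of 46, and 0 LTR entries higher and 2 lower of 7. The shares over all 438 tested features were 2.97% higher and 15.8% lower. The medians of the tested internal and LTR entries were -0.27 and -0.31.

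For 41 elements both portions were listed, and in 40 of them the internal entry had more reads. The exception was Gypsy-22_DYa, whose LTR entry held 64.0% of the element's reads. The median share of the LTR entry was 4.58%, and it was under 10% in 29 elements. BEL elements had the least LTR signal. None of the 13 BEL LTR entries had more than 6 summed reads, and their share of an element's reads was at most 5.17%, with a median of 1.53% against 7.57% in 28 Gypsy elements. BEL-13_DTa, the BEL element with the most reads, had 298 and 181 internal reads and a single LTR read.

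Both portions passed the filter in 6 elements, all of the Gypsy superfamily, and their ratios could be set side by side. In Gypsy4_Dya the internal entry was lower and the LTR entry, at 43 and 58 reads, had a log2 ratio of 0.53, a difference of -1.89 (interval -2.54 to -1.25). In Gypsy-22_DYa the internal entry was also the lower of the pair, by -0.48 (interval -0.76 to -0.20). Gypsy-7_DTa showed the reverse, since its internal entry had 65 and 62 reads (log2 ratio 0.034) while its LTR entry was strongly lower, a difference of 2.91 (interval 1.61 to 4.38). In Gypsy16_Dya both portions were lower and the LTR entry more so, by 2.49 (interval 0.85 to 4.53). In Gypsy20_Dya the LTR entry had 37 and 47 reads (log2 ratio 0.44), and in Gypsy-24_DYa 52 and 39 (-0.31). For the latter elements the interval of the difference held 0, from -0.072 to 1.25 for Gypsy20_Dya and from -0.93 to 0.34 for Gypsy-24_DYa. The intervals of 2 pairs thus lay above 0, of 2 below 0 and of 2 across 0, with no common direction of internal against LTR entries. These differences within an element do not depend on the scaling.

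**Figure D4:**
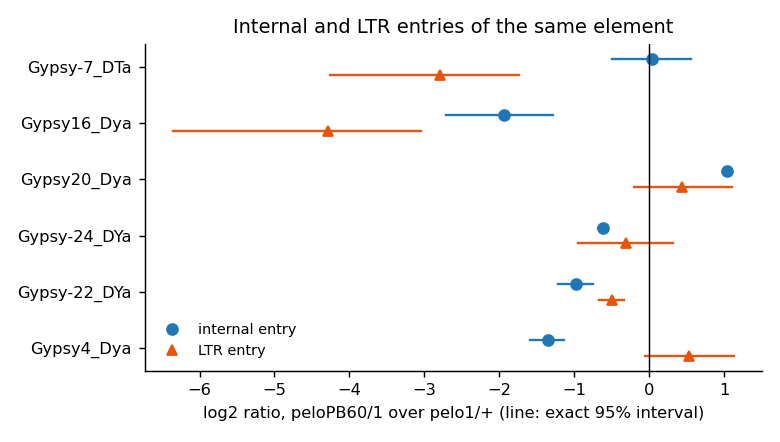
The log2 ratios of peloPB60/1 over pelo1/+ for the internal and LTR entries of the 6 elements in which both had at least 50 summed reads, with exact 95% intervals of counting error. In Gypsy-7_DTa and Gypsy16_Dya the LTR entry lies left of the internal entry, and in Gypsy4_Dya and Gypsy-22_DYa the internal entry lies left of the LTR entry.

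By superfamily, Gypsy features made up the bulk, with 14839 and 14517 reads, or 74.6% and 75.7% of the members' reads. Their pooled log2 ratio was 0.070 (interval 0.037 to 0.10), and -0.55 without Gypsy20-I_Dya. Of 38 tested Gypsy features 1 was called higher and 11 lower, with a median of -0.27 and a range from -4.29 to 1.04. The shares over all 438 tested features were 2.97% higher and 15.8% lower. BEL features had 1416 and 993 reads, a pooled log2 ratio of -0.41 (interval -0.53 to -0.29). Of 13 tested BEL features 12 were below 0, 2 of them called lower, and the median was also -0.41. Over all 438 features, 274 were below 0. The leading BEL entry, BEL-13_DTa-I, held 21.0% and 18.2% of the BEL reads. Without it the pooled log2 ratio was -0.36, so no single entry carried the BEL ratio. It did differ by species. The 22 takahashii BEL features, with both lower calls, had -0.54 (interval -0.68 to -0.40). The 4 yakuba BEL features had -0.090, with an interval that held 0 (-0.31 to 0.13). All 13 tested BEL features were internal entries, and their ratios had an SD of 0.444, against 0.860 for the 32 internal entries of Gypsy elements.

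The Gypsy ratio exceeded the BEL ratio by 0.48 log2 units (interval 0.36 to 0.60), or by -0.14 (interval -0.26 to -0.011) without Gypsy20-I_Dya. The 2 Copia features gave 740 and 772 reads, of which Copia-1_DYa-LTR held 90.8% and 95.1%. The other, Copia-1_DTa-I, had 68 and 38 reads and a log2 ratio of -0.73. The R1 pair had 2429 and 2700 reads, and the Jockey pair 418 and 143. R2_DYa, with 24 and 25 reads, and RTE-1_DYa, with 27 and 21, stayed under the filter.

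Features of the 2 species also differed. The 58 yakuba features had 18099 and 18086 reads and a pooled log2 ratio of 0.10 (interval 0.071 to 0.13). The 36 takahashii features had 1794 and 1085 reads, 1.54-fold lower in peloPB60/1 (log2 ratio -0.62, interval -0.73 to -0.51). The difference was 0.72 log2 units (interval 0.61 to 0.84), and 0.30 (interval 0.18 to 0.41) without Gypsy20-I_Dya. In the yakuba set 1 of 37 tested features was called higher and 8 lower, and in the takahashii set 0 of 20 higher and 6 lower. Their medians were -0.23 and -0.55. The shares over all 438 tested features were 2.97% higher and 15.8% lower, and 34 of the 176 other features with a species name were called lower. Superfamily and species were not independent, since 22 of the 26 BEL features were takahashii entries and 47 of the 60 Gypsy features yakuba entries. Among Gypsy internal entries alone, the 24 yakuba entries apart from Gypsy20-I_Dya had a log2 ratio of -0.55 and the 7 takahashii entries -0.65. That difference of 0.11 had an interval that held 0 (-0.097 to 0.31). Among BEL internal entries the species lay farther apart, though with only 2 yakuba entries. Those 2 pooled to a log2 ratio of -0.13 (interval -0.35 to 0.096), and the 11 takahashii entries to -0.54 (interval -0.68 to -0.39).

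The ratios differed with abundance. The 37 features with 50 to under 200 summed reads had a median log2 ratio of -0.23, with 26 below 0, none called higher and 10 called lower. The 14 features with 200 to under 1000 reads were lower still, with a median of -0.69, 12 of 14 below 0 and 4 called lower. Pooled, these 14 had 4067 and 2204 reads (log2 ratio -0.78, interval -0.86 to -0.71). The 5 features with 1000 to under 10000 reads ranged from -0.61 to 0.49 with a median of -0.11 and no call. The single feature above 10000 reads was Gypsy20-I_Dya. For the 6 features with at least 1000 reads the median was 0.060 and the signs were even, with 3 above and 3 below 0. Of the 37 features under the filter, Gypsy-5_DTa-LTR, named after its values were seen, had 18 and 3 reads (log2 ratio -2.30, interval -4.89 to -0.71) and was the 1 that would be called with a filter of 10 summed reads. The 13 with 10 to 49 reads pooled to 209 and 156 reads (log2 ratio -0.32, interval -0.63 to -0.014), and the 24 with fewer than 10 pooled to 40 and 49 (0.39, interval -0.24 to 1.03).

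The ratios of other piRNA features differed with abundance too. Those with 50 to under 200 reads had a median of -0.43 over 158 features, those with 200 to under 1000 reads -0.30 over 82, and those with at least 1000 reads 0.11 over 141. In the same order, 117, 54 and 62 of these other features lay below 0, and 6, 3 and 3 were called higher. In the lowest of these bins 27.0% of the members and 21.5% of the other features were called lower, and in the middle bin 28.6% and 14.6%. The members' median thus lay above that of the other features among rarer features and below it in the middle bin. Pooled, however, the rarer features had nearly equal log2 ratios, -0.43 for the members and -0.44 for the others. The orders of the medians do not depend on the scaling. The middle bin holds 14 members, and no test of the difference was possible with 1 library per genotype. The features with no tag of another species, which hold 96.3% and 96.2% of the reads, had a median of 0.024 over 153 features. That median is not matched for abundance, since 122 of the 153 had at least 1000 reads, with a median of 0.11. The 8 with 50 to under 200 reads had a median of -0.27, and the 23 with 200 to under 1000 reads -0.45.

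**Figure D5:**
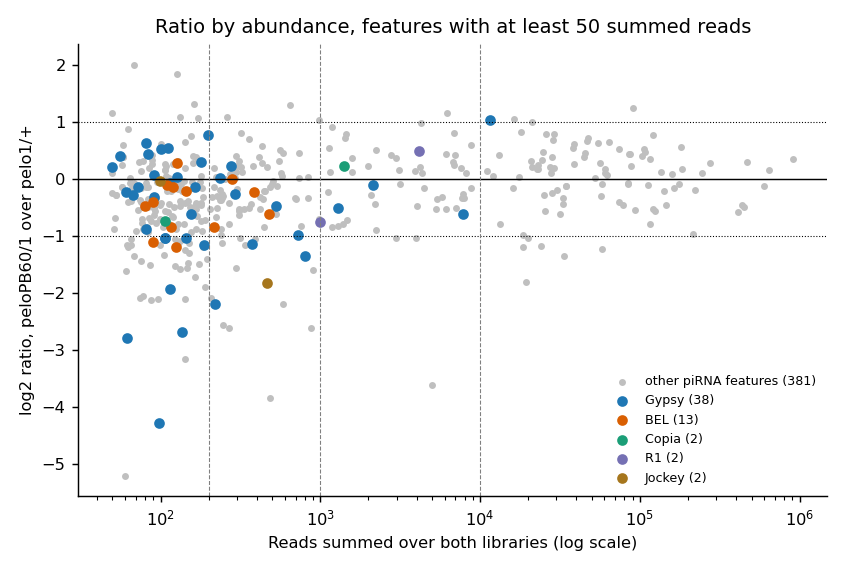
The log2 ratio of peloPB60/1 over pelo1/+ against reads summed over both libraries (log scale) for the 57 features with at least 50 summed reads, coloured by superfamily, over 381 other piRNA features in grey, with dashed lines at 200, 1000 and 10000 reads. Features with 200 to under 1000 reads lie mostly below 0, with a median of -0.69, and the 6 with at least 1000 reads lie on both sides of it.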

How the data were processed

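Per the labels, RNA of 18 to 30 nt was purified from total ovary RNA and made into Illumina libraries. The authors deposited raw counts of reads per feature, with no normalization. Bowtie 0.12.7 and the build BDGP5 are named, without roles, in the submitters' processing notes. Strand, mismatches and repeat references are not named there or in the labels.

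A feature missing from 1 table was given 0 counts. Counts were scaled to the piRNA table total (5229331 and 4872519 reads), which covers piRNA reads and is not the library depth. Log2 ratios used 0.5 added counts, and pooled ratios none. Intervals are exact conditional (Clopper-Pearson, or Fisher's for a difference of log2 ratios), at 95%. Reads without molecular identifiers are not independent molecules, so intervals cover counting error only. Calls needed 50 summed counts, a 2-fold difference and an interval without 0, across all 438 tested features. edgeR 4.0.16 and DESeq2 1.42.0 served for scaling factors only. Other steps used Python 3.11.15 and scipy 1.17.1, and the calls were tested on simulated Poisson counts. Such counts hold counting error only, so they cannot show how the calls fare with differences between animals or libraries.

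Superfamily, species and entry type were read from names. Named features were the 10 most abundant, up to 8 called in each direction, and the most abundant of each superfamily and entry type. Pairs past the filter and features listed in 1 table were also named. Copia-1_DTa-I was named as the other of the 2 Copia features, and any further members are said to be named after their values were seen. The members, lists and tests were chosen with earlier results of these data known. Miscounted or shared reads between related sequences could not be examined. No sequences were used here.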

Additional observations from a re-analysis of the deposited data

How the results depend on the processing

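No paired analysis was possible because pelo1/+ and peloPB60/1 have 1 library apiece, which also leaves none to drop. Alternatives gave 119 values for pooled ratios, medians, differences and counts, of which 66 stayed close, 33 moved and 20 changed sign. Some of the 66 could not have differed. Scaling cancels in the differences, and some alternatives changed no feature that entered a median or count. For the 23 features followed singly, 88 of 115 values kept their direction and their call or lack of one, 20 lost the call, 2 gained it, and 5 uncalled values changed sign. Leaving out the 2 most abundant members, and adding yakuba and takahashii features written in other ways, were chosen after seeing the data.

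The pooled log2 ratio (0.049) was -0.017 with the total of both tables, 0.23 with TMM, 0.18 with median-of-ratios, 0.54 with upper quartiles and -0.19 with the miRNA total. It was -0.36 without the most abundant member, -0.26 without the leading 2, -0.27 with Copia-1_DYa-I and 0.15 with features written in other ways. The difference from other piRNA features (0.049) was -0.36, -0.26 and -0.27 in the first 3 of these sets, that of internal and LTR entries (0.27) was -0.33, -0.27 and -0.12, and that of yakuba and takahashii (0.72) was 0.30, 0.43 and 0.37. Gypsy minus BEL (0.48) was -0.14 and -0.087 without the leading 1 and 2. These changes follow from Gypsy20-I_Dya, or Copia-1_DYa-I, holding a large part of the pooled reads.

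Higher calls (1) were 0 with the total of both tables, the miRNA total, 4-fold, and without the leading 1 or 2 members, 5 with upper quartiles and 2 at 1.5-fold. Over all 438 features, higher calls were 10 with the total of both tables, 5 with the miRNA total and 50 with upper quartiles. At 4-fold, 1 genomic interval was called higher and none in the other classes. Lower calls (14) were 8 with TMM, 6 with upper quartiles, 4 with a filter of 200, 23 at 1.5-fold and 4 at 4-fold. Over all 438 features, lower calls were 47 with TMM, 31 with upper quartiles and 18 at 4-fold. Of other piRNA features, 12 of 82 with 200 to under 1000 reads and 9 of 141 with at least 1000 were called lower. No share over all features was taken at 1.5-fold, so the 1.5-fold counts say nothing particular about the members. The median (-0.28) was -0.10 with TMM, -0.15 with median-of-ratios, 0.21 with upper quartiles, -0.52 with the miRNA total and -0.49 with a filter of 200. In the same 4 scalings the median at 50 to under 200 reads (-0.23) was -0.047, -0.094, 0.27 and -0.46, at 200 to under 1000 reads (-0.69) it was -0.51, -0.55, -0.19 and -0.92, and at 1000 or more (0.060) it was 0.24, 0.19, 0.56 and -0.18. The last was also -0.0051 with the total of both tables, -0.11 without the most abundant member or with Copia-1_DYa-I, and -0.30 when bins were set by the doubled pelo1/+ count.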

Other observations

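Some features outside the rule carry related names and are given as values. Copia-1_DYa-I, the internal entry beside Copia-1_DYa-LTR, had 12657 reads against 5958 in peloPB60/1 (log2 ratio -0.99), while Copia-1_DYa-LTR had 0.23. The D. melanogaster entries Copia1-I_DM and Copia1-LTR_DM had log2 ratios of 0.20 and -0.53, so there the internal entry was the higher of the pair. Yakuba and takahashii names written in other ways were Dyak\TART (89315 and 93960 reads, log2 ratio 0.18), Dyak\HeT-A (407 and 296 reads, -0.36), Copia-1-I_DY (55 and 36 reads, -0.50), Copia-1-LTR_DY (0 and 1 reads) and Dtak\R1A2 (13 and 14 reads).

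R1 entries of several species did not share a ratio. R1_DSi had 3644 and 5135 reads (log2 ratio 0.60) and R1_DSe 2020 and 2179 (0.21), on the side of R1_DYa at 0.49. R1_DEr had 691 and 212 reads (log2 ratio -1.60), on the side of R1-1_DYa at -0.76. R1_DMo, R1_DVi and R1_DWi had 0.20, -0.00032 and 0.037, with intervals that held 0. R1A1-element, the abundant D. melanogaster R1 element, had 0.36. Pooled lists of D. melanogaster LTR elements, of which 44 of 46 Gypsy, 7 of 8 BEL and 4 of 4 Copia names were found, had log2 ratios of 0.20, -0.16 and 0.68. Their medians were 0.12, -0.44 and 0.60, and of the 7 BEL elements 4 lay below 0 and 3 above.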
